A study of Mus musculus with 6 samples.

Results

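Among the 1006 miRBase precursor entries of the deposited table, the entries named mir-140 and mir-455 were taken by name, and each name had 1 entry. They are described in the 6 libraries of a small RNA sequencing study, which comprised 1 library of mouse primary osteoblasts (OB), 1 library of mouse primary bone marrow cells (BM), 2 libraries of extracellular vesicles of C2C12 cells (Myo-EVs) and 2 libraries of vesicles of C2C12 cells exposed to fluid flow shear stress (FFSS-Myo-EVs). C2C12 is a mouse myoblast line. The vesicles were pelleted by ultracentrifugation from medium conditioned for 48 hr, and for FFSS the cells were kept on an orbital shaker which by calculation gave 6 dyn/cm2. The methods of the culture assays describe osteoblasts as calvarial cells of 5 male mice of 3 to 5 days at passage 2 and take bone marrow cells from the tibiae of 1 male mouse of 8 weeks, without naming the sequenced libraries. The sample labels instead give 8 to 10 weeks for both, and a mixed background of C57BL/6J (81.25%) with 129/SvJ (18.75%) for all 6 libraries, those of the C2C12 line included. By the labels, fluid flow shear stress was applied for the FFSS-Myo-EV libraries, and the other 4 are controls. The growth text of the labels, identical for all 6, mentions cultures with or without 1,25-dihydroxyvitamin D3 or dexamethasone and not FFSS, and does not say which libraries it covers. OB and BM have 1 library each and thus no replicate error. No source says that the EV libraries came from separate cultures, so their p-values measure only the spread between these libraries, which may be technical.

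MicroRNAs are short RNAs that are cut from a hairpin precursor, load into Argonaute and pair with messenger RNAs mainly through the seed near their 5′ end. The miRNAs mir-140 and mir-455 are known for their high level in cartilage, where the transcription factor Sox9, the master regulator of chondrocytes, drives their loci. Loss of mir-140 in mice causes mild dwarfism through the growth plate, and both miRNAs have been studied in osteoarthritis. Neither is restricted to cartilage.

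Mir140 lies on chromosome 8 of GRCm38 (chr8:107551244-107551313, plus strand), within intron 16 of Wwp2, which encodes a ubiquitin ligase. Mir455 lies on chromosome 4 (chr4:63256851-63256932, plus strand), within intron 10 of Col27a1, which encodes a fibrillar collagen of cartilage. Both hairpins have the strand of their host gene. The mature sequences from RefSeq (GRCm38.p6) are printed with the seed, bases 2 to 8, in capitals, because the entries are described as a pair and their seeds differ. The RefSeq set used held no 5p arm of mir-140, so that arm is not printed, although its reads would count in the entry as well.
mmu-miR-140-3p (chr8:107551288-107551308): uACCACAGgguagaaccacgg
mmu-miR-455-5p (chr4:63256867-63256888): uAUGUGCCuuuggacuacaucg
mmu-miR-455-3p (chr4:63256904-63256924): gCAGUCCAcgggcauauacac
The hairpin of mir-140 is printed next with the mature 3p arm in capitals, because the deposited entry counts all reads matched to the precursor and does not list the arms apart.
Mir140 hairpin: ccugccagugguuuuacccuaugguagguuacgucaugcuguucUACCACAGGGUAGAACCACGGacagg

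The seed of miR-140-3p was shared in the RefSeq table with mmu-miR-497b, that of miR-455-5p with mmu-miR-5129-3p, and that of miR-455-3p with no other mature miRNA. Neither the seed nor the stretches of the 5p arm of mir-140 were compared. The entry mir-497b had between 4 and 31 counts per library and mir-5129 between 4 and 35. The counts of mir-497b lay far below those of mir-140 in every library. In the vesicles mir-5129 was about as scarce as mir-455, with 6 and 6 counts in the Myo-EV libraries and 7 and 4 with FFSS. Stretches of 18 bases of the printed mature sequences were found in transcripts of Mir140 and Wwp2 for miR-140-3p, and of Mir455 alone for both arms of mir-455. No other annotated miRNA gene held these stretches.

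The total count was 5181296 in OB, 6092460 in BM and between 2414132 and 3029524 in the 4 EV libraries. The normalized expression value is the count multiplied by 1 constant per library, as scaled by the authors. The markers of the 2 cell libraries went with their labels. The 6 mesenchymal entries (mir-199a-1, mir-199a-2, mir-199b, mir-214, mir-143 and mir-145a) summed to a normalized value of 536435.8 in OB and 22199.3 in BM, whereas the 5 haematopoietic entries (mir-223, mir-142a, mir-150, mir-144 and mir-451a) summed to 175.7 in OB and 20347.7 in BM. The copies mir-199a-1 and mir-199a-2 were near equal in every library (87356.0 and 88096.0 in OB), so they should not be read as 2 independent entries. In the EV libraries the mesenchymal sum was between 335111.9 and 437712.5 and the haematopoietic sum between 10.8 and 50.9. The 6 muscle entries summed to between 2052.9 and 2641.9 in the EV libraries, nearly all of it from mir-206. Of the defining muscle miRNAs, mir-1a-1 was at 0 in the 4 EV libraries, its other copy mir-1a-2 had 3, 5, 2 and 0 counts in them, and mir-133a-1, mir-133a-2 and mir-133b reached at most 45.2.

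The levels of the pair went apart. The entry mir-140 was abundant in every library, whereas mir-455 was high in osteoblasts, low in bone marrow cells and nearly absent from the vesicles. The normalized value of mir-140 was 38752.5 in OB, 15663.7 in BM, 58160.8 and 66413.6 in the Myo-EV libraries, then 43856.8 and 47124.8 with FFSS. On this scaling the 2 Myo-EV libraries were the highest and BM was the lowest of the 6. As a share of all counts, mir-140 made up 1.35% of OB (exact 95% Clopper-Pearson interval 1.34% to 1.36%), 0.647% of BM (0.641% to 0.654%), 2.02% and 2.30% of the Myo-EV libraries, and 1.45% and 1.60% of the FFSS-Myo-EV libraries. It ranked 15 among the 1006 entries in OB, 23 in BM, 12 and 8 in Myo-EVs, with 13 and 12 in FFSS-Myo-EVs. These intervals hold counting error alone, since amplified reads that carry no molecular identifier are not independent.

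The normalized value of mir-455 was 2352.0 in OB, 152.5 in BM, 11.0 and 0 in Myo-EVs, with 6.0 and 11.1 in FFSS-Myo-EVs. These values rest on 4259 counts in OB, 384 in BM, 11 and 0 in Myo-EVs, with 6 and 10 in FFSS-Myo-EVs. Both cell libraries lay far above the 4 EV libraries, among which the Myo-EV and FFSS-Myo-EV values overlap. In CPM, the count scaled to a common library total, mir-455 was at 822 in OB (interval 797.5 to 847) and 63.0 in BM (56.9 to 69.7). The 3 EV libraries with reads had 3.83 (1.91 to 6.85), 1.98 (0.727 to 4.31) and 3.76 CPM (1.81 to 6.92). The second Myo-EV library, with 0 counts, has an exact interval of 0 to 1.53 CPM. The bounds given below set it at 3 counts of its total, which is 1.24 CPM. By rank, mir-455 was at 79 in OB, at 163 in BM and between 332 and 686 in the EV libraries.

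**Figure D1:**
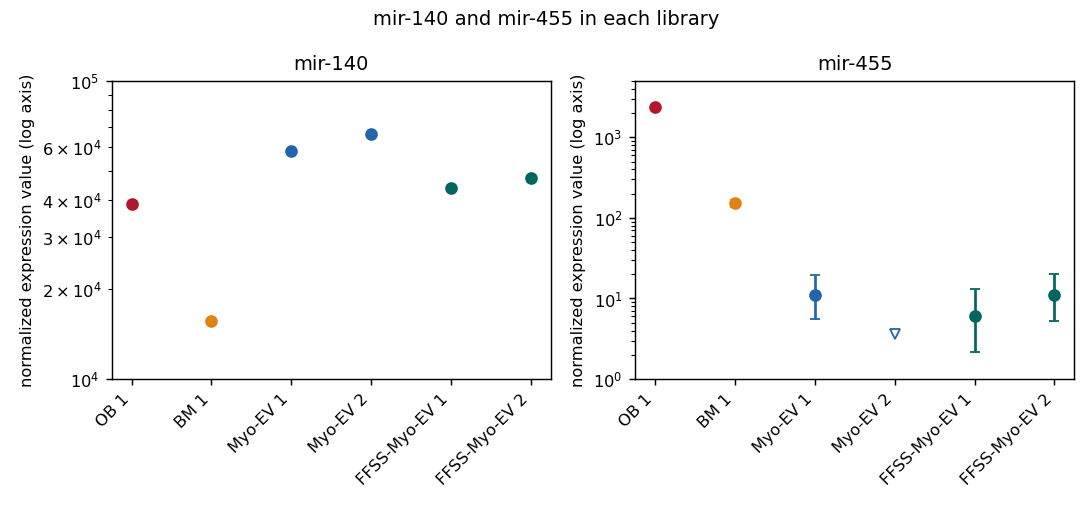
Normalized expression value (log axis) of mir-140 (left) and mir-455 (right) in each of the 6 libraries, with points coloured by condition, bars for the exact 95% counting interval (smaller than the points where not visible) and an open triangle at 3 counts for the library with 0 counts. The values of mir-140 lie between 15663.7 and 66413.6, whereas those of mir-455 run from 2352.0 in OB to at most 11.1 in the vesicles.

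The comparison of the cells asked how far the 2 miRNAs were richer in calvarial osteoblasts than in bone marrow. The normalized value in OB was 2.47 times that in BM for mir-140 (counting interval 2.44 to 2.50) and 15.4 times for mir-455 (13.9 to 17.2). With 1 library for each cell there is no test, and in such bulk samples fewer cells of a type and less RNA per cell cannot be told apart. Of the 444 entries with a mean of at least 10 over the 4 conditions, 33.6% were at least 2-fold and 20.3% at least 10-fold higher in OB than in BM. A ratio as high as that of mir-140 was found for 140 of the 444 entries and one as high as that of mir-455 for 76 of them. The 6 mesenchymal entries were between 17.3 and 47.5 times higher in OB than in BM, with a median of 39.4. Both cartilage miRNAs had a smaller ratio than any of the 6, mir-455 close to the lowest of them and mir-140 far below. This order does not depend on the scaling, since the same 2 libraries enter every ratio. The size of the ratios does, and for mir-140 it was 2.09 in CPM and 2.89 with median-of-ratios factors. The entry mir-21a held 44.9% of the BM counts and 21.6% of those of OB. Without the counts of mir-21a the ratio was 1.47 for mir-140 and 9.17 for mir-455. The mesenchymal entries were not at 0 in BM, and their part in the level of mir-140 and mir-455 there was not tested.

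Against the osteoblast and bone marrow libraries, the vesicles held much mir-140 and little mir-455. No library of the C2C12 cells themselves is among the 6. A difference between cell types and one between vesicles and their source cells can therefore not be told apart. The Myo-EV mean of mir-140 was 62287.2 ± 5835.6 (SD, n = 2), which is 1.61 times OB and 3.98 times BM. The FFSS-Myo-EV mean was 45490.8 ± 2310.8 (SD, n = 2), 2.90 times BM and 1.17 times OB, and the latter fell below 1, to 0.808 and 0.890, with TMM factors and with median-of-ratios size factors over the 6 libraries. An order of FFSS-Myo-EVs and osteoblasts for mir-140 can therefore not be given. Myo-EVs were at least 2-fold above BM for 33.8% of the 444 entries.

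The mean of mir-455 was 5.5 ± 7.78 (SD, n = 2) in Myo-EVs and 8.55 ± 3.61 (SD, n = 2) in FFSS-Myo-EVs. Library by library, OB exceeded the first Myo-EV library by 213 times (counting interval 119 to 427), the second by at least 655 times, taken against 3 counts, and the FFSS-Myo-EV libraries by 393 times (181 to 1073) and 212 times (115 to 443). BM exceeded them by 13.8 times (7.63 to 27.9), at least 42.4 times, 25.5 times (11.6 to 70.0) and 13.8 times (7.41 to 28.9) in the same order. Every one of these intervals lies above 7, and the bounds for the second Myo-EV library do as well. The lower level in the vesicles than in OB and BM is thus larger than counting error in each library. With 1 library for each cell it has no replicate check. OB was at least 100-fold above the Myo-EV mean for 9.01% of the 444 entries, and 24 of the 444, mir-455 included, had a ratio to Myo-EVs at or above the 428 of mir-455. BM was at least 10-fold above Myo-EVs for 7.66%.

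**Figure D2:**
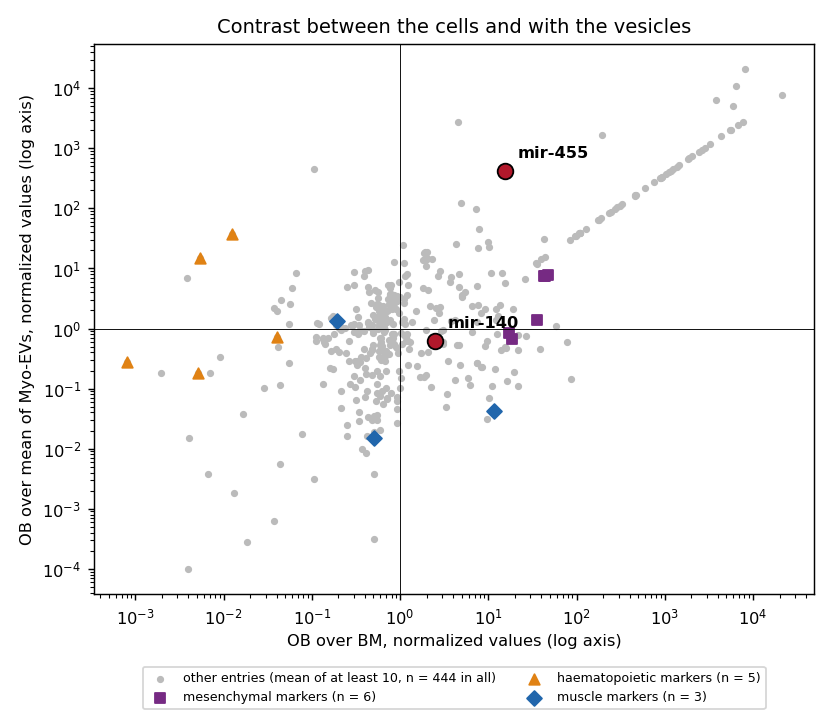
Ratio of OB to BM (horizontal, log axis) against the ratio of OB to the mean of the 2 Myo-EV libraries (vertical, log axis) of normalized values, for the 444 entries with a mean of at least 10 over the 4 conditions, with denominators under 3 counts set to 3 counts, which places such entries on a line at the upper right. The red points are mir-140, near the centre at 2.47 and 0.622, and mir-455, at 15.4 and 428, and the purple squares (mesenchymal), orange triangles (haematopoietic) and blue diamonds (muscle) are the marker entries.

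The ratio of the 2 entries within a library is free of any scaling between libraries. For each read of mir-455 there were 16.5 reads of mir-140 in OB (counting interval 16.0 to 17.0) and 102.7 in BM (92.9 to 113.9). In Myo-EVs there were 5267 in the first library (2944 to 10552) and at least 18484 in the second. In FFSS-Myo-EVs the ratio was 7337 (3371 to 19995) and 4255 (2313 to 8874). The 3 kinds of sample, osteoblasts, bone marrow and vesicles, were thus separated by more than the counting error of each library. Between FFSS-Myo-EVs and Myo-EVs the ratios overlapped, and the difference of -0.82 on the log2 scale had a p of 0.667 in a two-sided exact permutation test, whose smallest possible p with 2 libraries against 2 is 0.333. This difference rests on the second Myo-EV library, where the 0 counts of mir-455 were set to 3: without that library it turned to 0.085, and without the first Myo-EV library it was -1.73. A ratio of read counts between 2 miRNAs also carries their unequal ligation and amplification, which the comparison of 1 ratio across libraries leaves out.

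Shear stress was the only contrast with replicates. Both FFSS-Myo-EV libraries were below both Myo-EV libraries for mir-140, without overlap, and the ratio of the means was 0.730. On the authors' values, both FFSS-Myo-EV libraries lay below both Myo-EV libraries for 23.7% of the tested entries and above them for 36.7%. On TMM-scaled CPM, mir-140 had 21551.5 and 22704.1 without the stress against 14847.0 and 14852.0 with it. By the quasi-likelihood test of edgeR mir-140 fell by 0.58 on the log2 scale, with a standard error of 0.19 and a Benjamini-Hochberg adjusted p of 0.0100 over the 354 entries whose mean reached 10. The exact permutation test of mir-140 alone gave 0.333, the smallest p that 2 against 2 allows. The call ended when either FFSS-Myo-EV library was left out, with an adjusted p of 0.276 without the first and 0.269 without the second in the same edgeR test, while the log2 fold changes were -0.58 and -0.55.

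Many entries were called along with mir-140. In the same edgeR test 18.4% of the 354 entries were called lower and 12.1% higher in FFSS-Myo-EVs, that is 65 and 43 entries. Without the first FFSS-Myo-EV library 25 were called lower and 19 higher, and without the second 21 lower and 24 higher. With all libraries, 53 of the 354 had a log2 fold change as low as that of mir-140. With the authors' scaling in place of TMM the split was 39 lower and 54 higher, and that scaling moved the median of all entries up by 0.12 on the log2 scale. The log2 fold change of mir-140 was -0.45 with that scaling, with an adjusted p of 0.0193 in edgeR. Among the 33 entries with a Myo-EV mean of at least 10000, a group chosen after the values were seen, 6 including mir-140 had a log2 fold change as low as its own. Selection on the Myo-EV mean favours entries that fall. It lets in mir-351, with means of 12990.1 in Myo-EVs and 6564.1 in FFSS-Myo-EVs, and leaves out mir-199b, at 8731 and 13026. The 6 of 33 are therefore no fair background for the fall of mir-140. Marker entries moved as well. Of the muscle entries 4 were tested and 3 were called lower with FFSS (mir-133a-1, mir-133a-2 and mir-133b), while mir-206 had a log2 fold change of 0.15 and was not called. The copies mir-133a-1 and mir-133a-2 had 19, 16, 10 and 4 counts against 17, 17, 6 and 4 in the EV libraries, and mir-133b at most 45. The 3 calls thus rest on few reads and are not independent. The mesenchymal mir-199b and the erythroid mir-451a were called higher, and the part of these changes in the value of mir-140 was not tested.

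For mir-455, only 27 reads over the 4 EV libraries stand behind the same comparison. Its mean of 7.03 over these libraries was below the minimum of 10, so it was not among the tested entries. Tested without that filter, over 893 entries, mir-455 had a log2 fold change of 0.32 with a standard error of 0.62 and an adjusted p of 0.828 in edgeR. The ratio of the FFSS-Myo-EV mean to the Myo-EV mean was 1.55, and it turned to 0.777 without the second Myo-EV library. A change of mir-455 was not detectable at this depth.

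**Figure D3:**
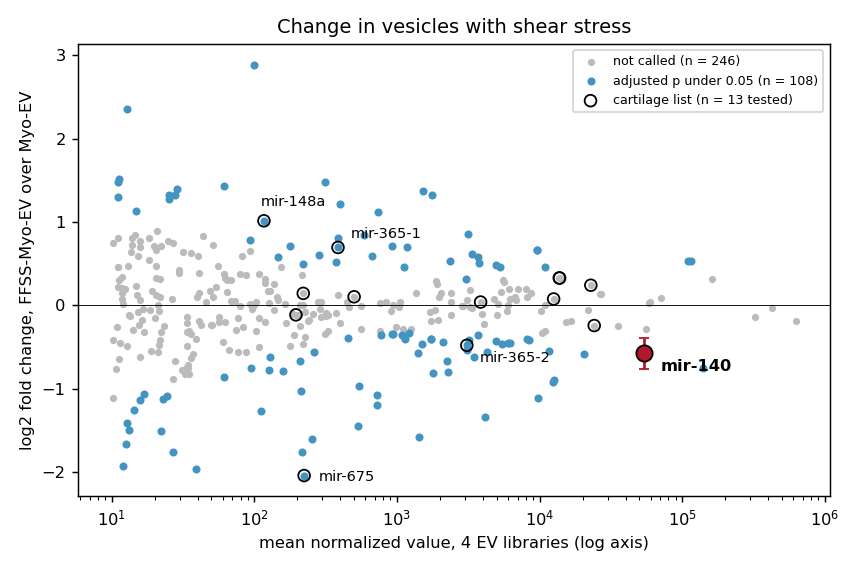
Log2 fold change of FFSS-Myo-EVs over Myo-EVs in edgeR (vertical) against the mean normalized value over the 4 EV libraries (horizontal, log axis) for the 354 tested entries, with the 108 entries under an adjusted p of 0.05 in blue and the 13 tested entries of the cartilage list ringed. The red point is mir-140 at -0.58 with a bar of 1 standard error on each side, at the abundant end of the entries that were called lower.

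A list of other miRNAs studied in cartilage was set beside the pair, of which 17 entries are in the table. In OB against BM, 12 of the 16 list entries with a mean of at least 10 were at least 2-fold higher, with a median ratio of 12.7, against 33.6% and a median of 0.817 over the 444 entries. The 2 list entries at least 2-fold lower in OB were mir-101a, at a ratio of 0.300, and mir-146a, at 0.0560, where 31.5% of the 444 entries were that low. In OB against Myo-EVs, 10 of 16 were at least 2-fold higher, with a median ratio of 4.99, against 38.1% and a median of 1.10. An entry can reach the mean of 10 through OB alone. Thus mir-337, mir-495 and mir-483 had 3865.2, 1748.4 and 292.7 in OB and at most 1.2 in BM and each EV library. For such entries the filter fixed a higher value in OB, so these counts and medians do not test whether the list is high in OB. The list shares mir-145a and both mir-199a entries with the mesenchymal markers, and the 2 mir-199a entries, near equal in every library, are each counted here. On both ratios mir-455 lay above the list's median and mir-140 below it.

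The list entries mir-145a, mir-30a, mir-101a, mir-101b, mir-495 and mir-1247 are miRNAs that have been linked to the Sox9 messenger. Of these, mir-145a had the highest normalized value in OB, 16583.5, with 893.7 in BM, 25112.8 and 25047.0 in the Myo-EV libraries, then 21558.8 and 24787.3 with FFSS. Its OB to BM ratio was 18.6, against the 2.47 of mir-140. The entry mir-495 had its reads almost wholly in OB, with 1748.4 in OB, 1.2 in BM and at most 1.1 in the EV libraries. The entry mir-101a went the other way between the cells, with 1683.8 in OB against 5607.4 in BM. For mir-101b the values were closer, 2998.2 against 3486.5, a ratio of 0.860. The scaling moves ratios of OB to BM by about as much, for mir-140 from 2.47 to 2.89 with median-of-ratios factors. No order of the cells is therefore given for mir-101b. The entry mir-30a had 10270.7 in OB and 1573.2 in BM. The entry mir-1247 had 21 counts in OB and 0 in the other 5 libraries.

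Among the 11 other entries, mir-148a was at 202103.7 in OB and 44559.0 in BM but at 60.2 and 86.2 in the Myo-EV libraries, against 146.4 and 173.9 with FFSS. OB was 2761 times the Myo-EV mean for mir-148a, at least 1170 times for mir-337 and at least 529 times for mir-495, the 3 list entries past 100-fold. The entries mir-365-2 and mir-675 were the 2 of the list that were at least 2-fold lower in OB than in Myo-EVs, which 35.1% of the 444 entries were.

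**Figure D4:**
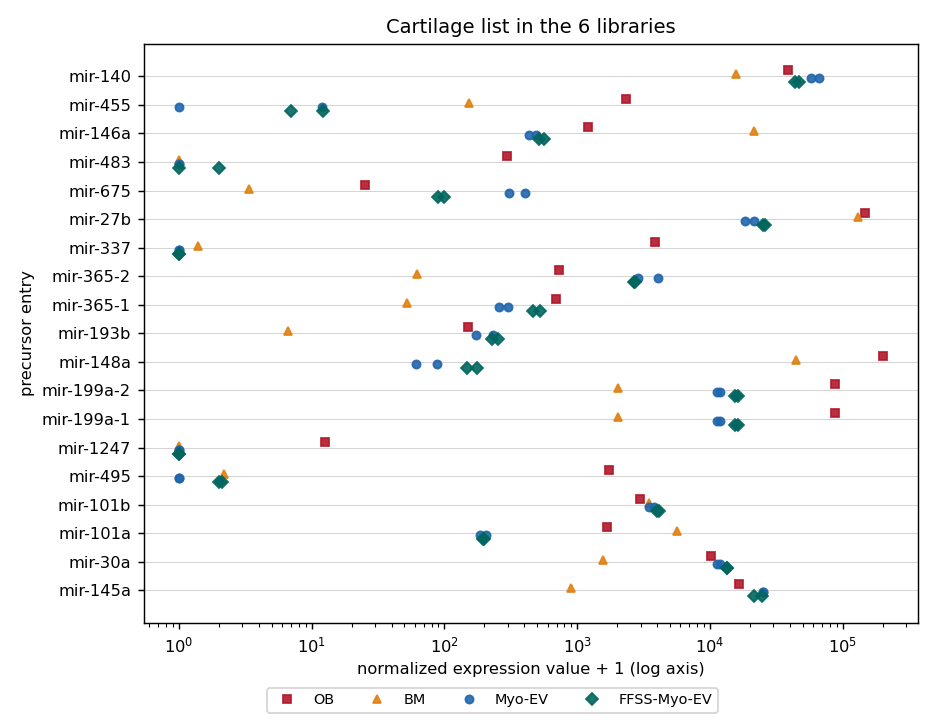
Normalized expression value plus 1 (log axis) of mir-140, mir-455 and the 17 entries of the cartilage list in the 6 libraries, with red squares for OB, orange triangles for BM, blue circles for the 2 Myo-EV libraries and green diamonds for the 2 FFSS-Myo-EV libraries, offset vertically by condition. The entries mir-455, mir-148a, mir-337 and mir-495 have wide gaps between OB and the vesicles. For each, OB is at least 428 times the Myo-EV mean, and for mir-455 it is 275 times the FFSS-Myo-EV mean. The values of mir-140 lie close together.

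With shear stress, 13 entries of the list were tested, of which 2 rose, 2 fell and the others did not pass. These 4 of 13 stand beside 30.5% of all 354 entries called in either direction (12.1% higher, 18.4% lower), which is near the list's own share. The list had a median log2 fold change of 0.10 against -0.025 over all 354. The entry mir-148a rose by 1.01 on the log2 scale (standard error 0.26), mir-365-1 by 0.69 (standard error 0.16), mir-365-2 fell by 0.48 (standard error 0.13) and mir-675, which is cut from the H19 transcript, fell by 2.04 (standard error 0.21), each in the edgeR fit. The fall of mir-365-2 was not called with limma at either pseudocount (adjusted p 0.057 and 0.055), without the second Myo-EV library (log2 fold change -0.17, adjusted p 0.098 in edgeR) or without either FFSS-Myo-EV library. The rise of mir-148a was not called without either FFSS-Myo-EV library, nor that of mir-365-1 without the second. The copies mir-365-1 and mir-365-2 give the same 3p miRNA, so that reads of this arm cannot be told apart between them. None of the 4 tested entries linked to the Sox9 messenger was called, too few to set apart from the 30.5% over all entries, and mir-145a had -0.24 with a standard error of 0.16 and an adjusted p of 0.290 in edgeR. Without the first FFSS-Myo-EV library 2 of the list were called, without the second 1 was, and without either Myo-EV library 6 were.

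The entries most like mir-140 in pattern were mir-149, mir-151, mir-28a, mir-872 and mir-421. They had the smallest root mean square difference from mir-140 in log2(mean + 1), each centred on its own mean, over the 4 conditions among 253 entries whose mean reached 100, from 0.15 for mir-149 to 0.37 for mir-421. In level they were far below mir-140. The closest, mir-149, had mean normalized values of 956.5 in OB, 314.2 in BM, 1608 in Myo-EVs and 1182 in FFSS-Myo-EVs, and with mir-140 it shared the highest value in Myo-EVs and the lowest in BM. With FFSS, mir-149 fell by 0.57 and mir-28a by 0.43 on the log2 scale in edgeR. The other 3 were not called and did not share the direction throughout, at 0.08 for mir-151, 0.10 for mir-872 and -0.12 for mir-421. The choice of these entries partly fixed such values. When likeness was taken as Pearson's correlation over the 6 libraries instead, mir-149 was still the first but 1 of the 5 entries was shared, so that mir-149 alone was named by both measures.

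For mir-455 the most similar entries were mir-1b, mir-676, mir-10b, mir-335 and mir-203, with differences from 0.80 to 1.63. All 5 were highest in OB, lower in BM and lowest in the vesicles, an order that follows largely from how they were chosen. Thus mir-676 had 737 counts in OB, 207 in BM and 0 in each EV library, and mir-335 had 9990 in OB, 71 in BM and at most 3 in the EV libraries. The entry mir-10b, which lies in a Hox cluster, kept 28 to 47 counts in the EV libraries, more than mir-455. Of these 5 entries, 4 were shared under Pearson's correlation and 3 when the minimum mean was lowered to 10.

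**Figure D5:**
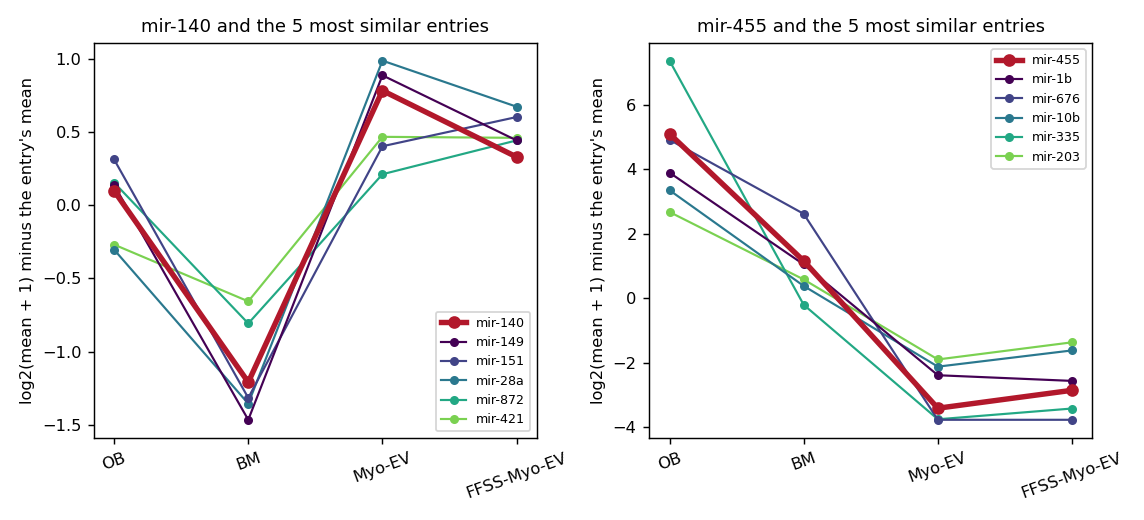
Level in the 4 conditions of mir-140 (left, red) and mir-455 (right, red) and of the 5 entries most similar to each, as log2(mean normalized value + 1) minus the entry's own mean over the conditions, with lines that only join the points of 1 entry. On the left all 6 entries have their lowest point in BM and span under 3 log2 units, and on the right all 6 have their highest point in OB and span from 4 to over 11 units.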

How the data were processed

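Small RNA libraries of OB, BM, Myo-EVs and FFSS-Myo-EVs were sequenced. The authors grouped the reads by sequence in CLC Genomics Workbench and matched the groups to miRBase, and deposited a whole-number count for each precursor entry and library. The second deposited value is a signal, the normalized expression value, which the authors made by first converting the counts to a common total and then normalizing them further. In the deposited table it equals the count times 1 constant per library. The labels name the build mm10. The miRBase release, the mismatches allowed and the treatment of reads matching several precursors are not given in the sources used here.

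The 2 entries, the gene lists and the tests were chosen with earlier results of these data known. Entries named are mir-140 and mir-455, a cartilage list, marker lists, entries sharing a seed, and the 5 entries most similar to each. The names mir-145, mir-193 and mir-142 of these lists have no entry.

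FFSS-Myo-EVs were compared with Myo-EVs with edgeR 4.0.16 (quasi-likelihood test, TMM factors) in R 4.3.3, for 354 entries with a mean normalized value of at least 10 and a threshold of 0.05 on the adjusted p, and the test was tested on simulated data. The standard errors given with edgeR are the absolute log2 fold change divided by the square root of its F statistic. Alternatives used limma 3.58.1 and DESeq2 1.42.0. Intervals were made with scipy 1.17.1 and cover counting error only. Positions came from GENCODE M21 (GRCm38) and sequences from RefSeq.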

Additional observations from a re-analysis of the deposited data

How the results depend on the processing

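The fall of mir-140 in FFSS-Myo-EVs kept its sign and an adjusted p under 0.05 in all 9 alternatives other than leaving out a library (log2 fold change -0.63 to -0.45, adjusted p 3.32e-05 to 0.0193 over edgeR with other scalings and filters, limma and DESeq2). Without single EV libraries it was between -0.61 and -0.44, and the call held for 2 of 4, those without a Myo-EV library. The lone library left in a group is assumed to vary like the other group. With the replicate number as a block the log2 fold change was -0.57 (adjusted p = 0.0118 in edgeR), with 44 entries higher, 66 lower and 4 of the list called, and the block changed no call of the 13 list entries tested. The sources do not state that equal numbers belong together, and the deviations of equal numbers correlated at 0.20 across entries. For the log2 ratio of mir-140 to mir-455 the block left the difference at -0.82, and a sign-flip permutation of the 2 differences gave a p of 1. Leaving out libraries, that difference ran from -1.73 to 0.085, the latter without the second Myo-EV library, whose 0 counts of mir-455 were set to 3. The number called lower was 37 with limma at either pseudocount and 39 with the authors' scaling, against 65. Leaving out libraries, it ran from 21 to 72, the number higher from 19 to 60, and the list calls from 1 to 6, and the cause was not tested.

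The ratio of OB to BM for mir-140 was 2.09 in CPM, 2.89 with median-of-ratios factors, 2.65 with TMM factors and 1.47 without mir-21a, a setting added after the values were seen. For mir-455 it was 13.0, 17.999 and, without mir-21a, 9.17. For mir-140, Myo-EVs over OB were 1.31 with median-of-ratios and 1.21 with TMM factors, and FFSS-Myo-EVs over OB were 0.890, 0.808 and, without mir-21a, 1.11. Myo-EVs over BM were 3.33 in CPM, 3.22 with TMM factors and 2.36 without mir-21a. FFSS-Myo-EVs over BM were 2.36, 2.57 with median-of-ratios, 2.14 with TMM factors and 1.64 without mir-21a. For mir-455, FFSS-Myo-EVs over BM were 0.0316 without mir-21a. Of the 5 entries most like mir-140, 1 was shared under Pearson's correlation, and 3 of those most like mir-455 with a minimum mean of 10. Among list entries that were not called, mir-199a-1 and mir-199a-2 passed as higher in 9 of 13 alternatives each and mir-27b in 3, while mir-101a turned to 0.016 and 0.015 with limma, 0.013 with the authors' scaling and 0.028 without the first Myo-EV library (lowest -0.19 over the libraries left out), mir-101b to -0.010 without a filter, and mir-193b to -0.0070 without the first Myo-EV library (highest 0.41). Depth limits mir-455 in the vesicles, where 27 reads in all were counted.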
